A study of Homo sapiens with 3 samples.

Results

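BRG1 peaks at the starts and 3' ends of protein-coding genes were described in 12Z cells, an established human cell line of endometriotic epithelium. The data are chromatin immunoprecipitation sequencing (ChIP-seq) of wild-type 12Z cells with an anti-BRG1 antibody, in 2 libraries labelled replicates 1 and 2, and 1 input library whose own list was not used here. Per the labels' protocols, all cells were formaldehyde-fixed, and micrococcal nuclease and a short sonication cut the chromatin. The deposited values are peak lists of 17399 peaks for replicate 1, 10157 for replicate 2 and 6343 shared peaks, a further peak call kept where both replicates had a peak. A single line in a single condition limits this as a model of endometriotic tissue, and the peak lists hold no expression levels against which the cell type could be checked. Whether replicates 1 and 2 were grown as separate cultures is not stated in the labels, and their agreement may therefore be technical. Read counts are not given, and library depth is unknown.

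A shared peak on chromosomes 1 to 22 was taken as a gene-end peak when it reached the 3 kb on either side of the start or the end of a protein-coding gene. Peaks in the stretches around centromeres and on the short arms of acrocentric chromosomes were dropped. This left 3780 arm shared peaks, of which 419 (11.1%, 95% Wilson interval 10.1 to 12.1%) were gene-end peaks. The others were 1580 peaks inside gene bodies, 1100 intergenic peaks within 100 kb of a protein-coding gene and 681 peaks over 100 kb away. The gene-end peaks lay at the ends of 440 of 18973 protein-coding genes (2.32%), and 46 of them reached the ends of more than 1 gene. Just inside the 3 kb limit lay peaks 2997 bp from SBNO2, 2996 bp from IL20RB and 2992 bp from TNC. Just outside lay peaks 3001 bp from PSG2 and 3003 bp from COQ2.

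BRG1, encoded by SMARCA4, is an ATPase of the SWI/SNF (BAF) complex, which uses ATP to slide or evict nucleosomes and so opens DNA to transcription factors. SWI/SNF is known to act both at promoters and at distal enhancers, and in many epithelial and mesenchymal cells its distal sites carry the motifs of AP-1 and TEAD factors. AP-1 is a dimer of FOS and JUN family proteins, and TEAD factors bind DNA for the Hippo pathway coactivators YAP and TAZ.

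Promoter sequences of genes with a gene-end peak at the start are shown with the matches they hold to AP-1 and TEAD motifs. Of 20964 promoter windows in the RefSeq promoter table on chromosome arms, each running from 250 bases before to 50 bases after a start, 98 windows of 85 genes (0.467%) overlapped a gene-end peak by at least 1 base and are called covered. Of the 98, 60 lay wholly inside a peak and 38 in part. The motifs searched on both strands were TGANTCA for AP-1 and GGAATG or its reverse complement CATTCC for TEAD. The last bases of one motif can be the first bases of the other, but their matches did not overlap in the sequences shown here. The sequences below are the 250 bases before the start, 5' to 3' on the gene's strand, from RefSeq GRCh38.p14, with AP-1 and TEAD matches in capitals. The first 4 come from the 8 covered promoters whose peaks had the highest fold rank. Of those 8, the promoters of SYNC, MARCHF4, MRPS24 and TMCO4 had no match in these bases and are not shown. The other 4 were chosen after their values were seen, because their genes are YAP/TEAD genes or their promoters hold both motifs.
GPR39 (chr2:132416555-132416804, plus strand): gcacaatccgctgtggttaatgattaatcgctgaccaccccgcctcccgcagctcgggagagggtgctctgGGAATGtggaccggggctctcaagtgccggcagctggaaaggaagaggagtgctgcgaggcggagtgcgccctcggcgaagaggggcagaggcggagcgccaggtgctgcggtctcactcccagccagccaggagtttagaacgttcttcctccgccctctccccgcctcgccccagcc
CAPN2 (chr1:223701347-223701596, plus strand): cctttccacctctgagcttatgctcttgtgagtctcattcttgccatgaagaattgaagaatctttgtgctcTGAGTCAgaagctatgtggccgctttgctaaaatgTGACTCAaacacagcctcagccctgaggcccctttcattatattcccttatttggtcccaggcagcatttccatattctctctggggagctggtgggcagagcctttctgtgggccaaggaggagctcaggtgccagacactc
JADE1 (chr4:128811020-128811269, plus strand): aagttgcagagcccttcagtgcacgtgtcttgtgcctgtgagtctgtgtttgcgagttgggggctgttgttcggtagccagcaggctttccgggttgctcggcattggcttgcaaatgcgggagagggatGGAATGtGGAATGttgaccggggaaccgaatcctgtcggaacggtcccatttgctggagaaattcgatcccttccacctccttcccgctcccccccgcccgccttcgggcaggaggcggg
SLFN12 (chr17:35433175-35433424, minus strand): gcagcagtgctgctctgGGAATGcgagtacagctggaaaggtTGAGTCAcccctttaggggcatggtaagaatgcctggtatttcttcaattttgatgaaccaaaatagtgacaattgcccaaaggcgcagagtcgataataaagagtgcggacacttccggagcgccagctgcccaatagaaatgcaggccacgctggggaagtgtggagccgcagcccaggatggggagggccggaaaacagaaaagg
CCN2 (chr6:131951373-131951622, minus strand): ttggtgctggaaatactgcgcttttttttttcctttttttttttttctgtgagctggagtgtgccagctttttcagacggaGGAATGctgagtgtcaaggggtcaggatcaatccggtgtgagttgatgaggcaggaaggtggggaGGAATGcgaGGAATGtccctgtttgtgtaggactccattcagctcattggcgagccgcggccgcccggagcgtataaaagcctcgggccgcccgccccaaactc
YAP1 (chr11:102110197-102110446, plus strand): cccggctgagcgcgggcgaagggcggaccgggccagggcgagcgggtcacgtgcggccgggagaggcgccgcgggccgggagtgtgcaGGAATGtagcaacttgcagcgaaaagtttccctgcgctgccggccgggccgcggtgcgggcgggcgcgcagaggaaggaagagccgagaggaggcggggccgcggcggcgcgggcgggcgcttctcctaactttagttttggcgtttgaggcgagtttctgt
IGF2BP2 (chr3:185821143-185821392, minus strand): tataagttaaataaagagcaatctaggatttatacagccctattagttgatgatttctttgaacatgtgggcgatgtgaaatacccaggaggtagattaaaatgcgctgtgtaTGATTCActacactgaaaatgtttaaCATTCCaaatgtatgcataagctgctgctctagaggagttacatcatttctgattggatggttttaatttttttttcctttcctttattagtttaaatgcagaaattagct
PAMR1 (chr11:35530301-35530550, minus strand): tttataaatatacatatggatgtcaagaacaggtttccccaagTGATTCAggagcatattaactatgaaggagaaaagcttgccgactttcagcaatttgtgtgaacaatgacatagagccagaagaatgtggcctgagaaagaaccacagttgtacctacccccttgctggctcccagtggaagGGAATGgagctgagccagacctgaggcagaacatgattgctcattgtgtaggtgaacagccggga
These 8 sequences show a single TEAD match before GPR39, a zinc-sensing receptor gene, 2 AP-1 matches before CAPN2, which encodes a calpain protease, and 2 adjacent TEAD matches before JADE1, a subunit gene of a histone acetyltransferase complex. CCN2, a matricellular growth factor gene and a textbook YAP/TEAD target, had 3 TEAD matches, starting 169, 104 and 95 bases before the start. All matches in these 8 sequences lay inside the peak, although the peak overlapped only 121 of the 300 bases of the CAPN2 window, 177 of the SLFN12 window and 248 of the GPR39 window and did not reach the start of these 3 genes. In SLFN12, a Schlafen family gene, in IGF2BP2, an mRNA-binding protein gene, and in PAMR1 an AP-1 and a TEAD match stood in the same sequence. The GPR39 peak had a fold enrichment over background of 4.03 in the shared list, 4.06 in replicate 1 and 5.06 in replicate 2. The CCN2 peak had a fold of 3.68, against 3.85 in replicate 1 and 4.04 in replicate 2. The YAP1 peak, 3188 bp wide, had a fold of 3.07, against 3.54 in replicate 1 and 3.74 in replicate 2. All folds are the authors' values, and a replicate's value is that of its overlapping peak with the highest −log10 q.

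AP-1 matches were more common in covered promoter windows than in promoter windows at large. Of the 98 covered windows, 23 held an AP-1 match (23.5%, Wilson interval 16.2 to 32.8%), against 6.09% of all 20964 windows. A TEAD match stood in 21 covered windows (21.4%, interval 14.5 to 30.5%), against 12.2% of all windows. Either motif stood in 39.8% of covered windows, against 17.4% of all, and both in 5 covered windows (5.10%), against 0.925% of all. These 5 belonged to SLFN12, IGF2BP2, UPP1, PAMR1 and DST. The intervals of the AP-1 and TEAD shares lay above the share of all windows. They treat windows as independent, although some overlap and hold the same match, as in JADE1, in AMIGO2 and between BEND6 and DST. Read the other way, gene-end peaks covered 1.8% of windows with an AP-1 match (23 of 1277) and 0.381% of windows without one. A match is a description of the letters and not a binding site. An AP-1 match lay wholly inside the peak in 20 of the 23 windows that held one (interval 67.9 to 95.5%). A TEAD match did so in 20 of 21 (interval 77.3 to 99.2%). Both intervals included the 84.9% of all bases of the 98 windows that lay inside a peak.

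The higher AP-1 share was found in windows that a peak overlapped, and not in windows with a peak nearby. Among covered windows it was 21.7% of those wholly inside a peak (13 of 60, interval 13.1 to 33.6%) and 26.3% of those overlapped in part (10 of 38, interval 15 to 42%). The TEAD share was higher only in windows wholly inside a peak, at 28.3% (17 of 60, interval 18.5 to 40.8%). In windows overlapped in part it was 10.5% (4 of 38, interval 4.17 to 24.1%). Where a gene-end peak lay within 3 kb of the start without covering the window, 4.47% of 246 windows held an AP-1 match (interval 2.51 to 7.83%) and 8.54% a TEAD match (interval 5.65 to 12.7%), against 6.09% and 12.2% of all windows. With 1 window per gene, the AP-1 share was 23.5% of 85 covered genes, against 5.92% of all 14950 genes with a window. The TEAD share was then 20% (interval 12.9 to 29.7%), against 11.9%. The replicates taken singly gave the same picture. Windows overlapped by any peak of replicate 1 held an AP-1 match in 23.5% of 294 cases and a TEAD match in 22.1%. With any peak of replicate 2 the shares were 23.4% and 25% of 128 windows. The 45 windows with a replicate 2 peak but no shared peak differed, with an AP-1 match in 2 (4.44%, interval 1.23 to 14.8%). The 205 windows with a replicate 1 peak but no shared peak held one in 19.5% (interval 14.7 to 25.5%). A shared peak can also cover bases that a replicate's own peak does not reach. At gene starts, shared peaks covered 67 genes and peaks of replicate 2 covered 34. A covered window is thus not always covered in each replicate.

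**Figure D1:**
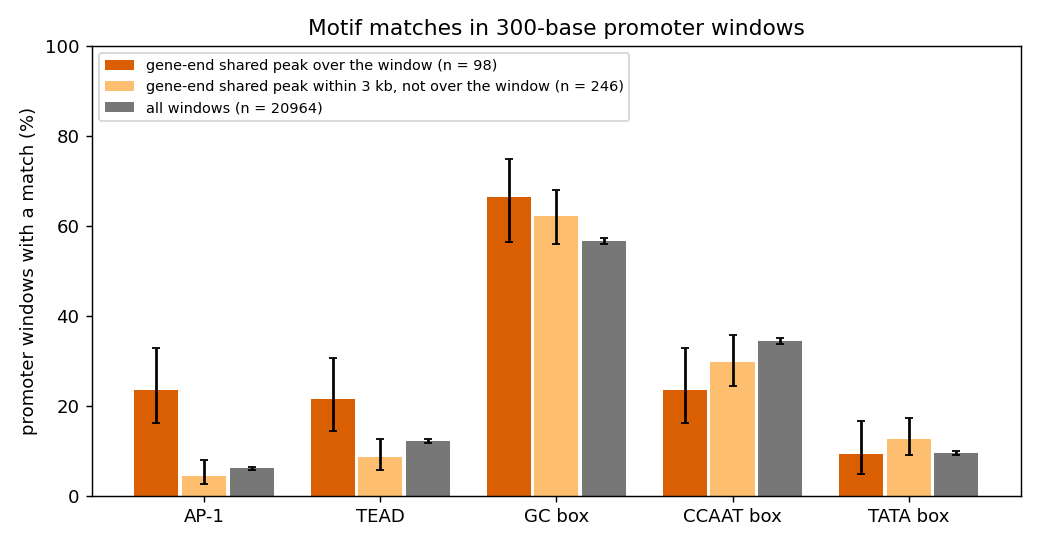
Percent of 300-base promoter windows (y axis) that hold a match to each motif (x axis), for windows overlapped by a gene-end shared peak, windows with such a peak within 3 kb but not over them, and all windows on chromosome arms; bars carry 95% Wilson intervals. The AP-1 share was 23.5% in overlapped windows, 4.47% in windows beside a peak and 6.09% in all windows, while the TATA box share was 9.18% in overlapped windows and 9.48% in all windows.

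Of the other promoter features, the CCAAT box was less common in covered windows. A GC box (GGGCGG or CCGCCC), which SP factors bind, stood in 66.3% of covered windows (interval 56.5 to 74.9%), against 56.7% of all. A CCAAT box (CCAAT or ATTGG), known to bind NF-Y, stood in 23.5% of covered windows (interval 16.2 to 32.8%), against 34.4% of all, so that its interval lay below the share of all windows. The interval included that share for windows wholly inside a peak (23.3%, interval 14.4 to 35.4%). It also did for windows under any peak of replicate 2 (28.9%, interval 21.8 to 37.3%), but not of replicate 1 (28.9%, interval 24.0 to 34.3%). A TATA box (TATAAA or TTTATA) stood in 9.18% (interval 4.91 to 16.5%), against 9.48% of all. CpG-rich windows, with an observed to expected CpG ratio of 0.6 or more, made up 71.4% of covered windows (interval 61.8 to 79.4%), against 62.7% of all. Windows covered by gene-end shared peaks were thus no poorer in CpG than promoters at large. The replicates taken singly did not show the higher shares as clearly. Under any peak of replicate 1, 174 of 294 windows were CpG-rich and 55.8% held a GC box (interval 50.1 to 61.3%). Under any peak of replicate 2, 81 of 128 were CpG-rich and 60.2% held a GC box (interval 51.5 to 68.2%). The windows at large include starts inside genes, which gene-end peaks seldom reach. Among windows within 3 kb of a gene's outer start, a GC box stood in 66% of 94 covered windows, against 60.8% of 17039. The AP-1 share was higher in covered windows of either kind. Among CpG-rich windows it was 14.3% of 70 covered windows (interval 7.95 to 24.3%), against 3.06% of all. Among the rest it was 46.4% of 28 covered windows (interval 29.5 to 64.2%), against 11.2% of all. The TEAD share was 20% of covered CpG-rich windows (interval 12.3 to 30.8%), against 9.26% of all. Among the rest it was 25%, with an interval (12.7 to 43.4%) that included the 17.2% of all. Genes with an AP-1 match in a covered window included AMIGO2, S100A2, HRH1, OSMR and EMP1, and those with a TEAD match included YAP1, ROCK2, DAB2 and CNN3. These 9 were picked from the covered genes after the values were seen.

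Peak coverage was higher at gene starts than at 3' ends. Strand was taken from the promoter table, which gave 14949 starts and 14950 ends. None of the 20 chromosome 8 genes with a gene-end peak had an entry there, so these counts leave them out. At the start itself 0.448% of genes were covered by a shared peak, against 0.134% at 15 to 20 kb upstream and 0.130% at 15 to 20 kb downstream. Both replicates showed it, with 0.569% at the start against 0.161% upstream in replicate 1, and 0.227% against 0.0626% in replicate 2. At 1 to 3 kb from the start the shared-peak coverage was 0.183% upstream and 0.281% downstream. At the 3' end it was 0.107%, against 0.137% at 15 to 20 kb upstream and 0.133% at 15 to 20 kb downstream. In replicate 1 the 3' end had 0.147%, against 0.167% and 0.164%, and in replicate 2 0.0334%, against 0.0705% and 0.0675%. Coverage at the 3' end itself was thus below that at both distances in all 3 lists, but from few genes at a single position. These were 16 genes in the shared list (interval 0.0659 to 0.174%), 22 in replicate 1 (interval 0.0972 to 0.223%) and 5 in replicate 2 (interval 0.0143 to 0.0783%). Each interval included the values at both distances. At 1 to 3 kb from the 3' end the shared-peak coverage was 0.140% upstream and 0.158% downstream, and so not below them. No test was made over positions, since neighbouring positions share peaks.

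**Figure D2:**
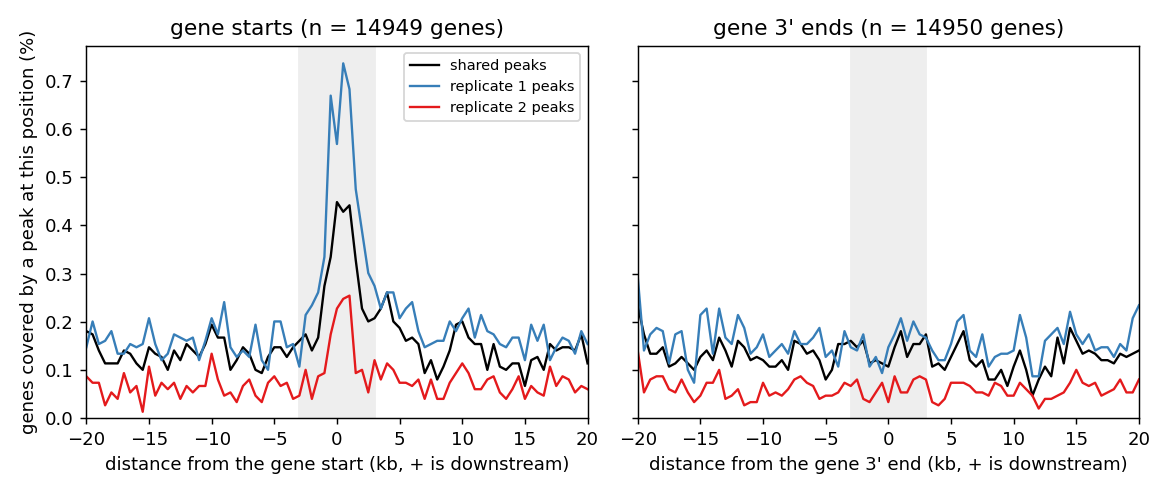
Percent of genes covered by a peak (y axis) at each distance in kb (x axis) from the gene start (left) and the gene 3' end (right), for shared peaks and for the list of each replicate; the grey band is the 3 kb window. Coverage by shared peaks reached 0.448% at starts and was 0.107% at 3' ends.

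Most gene-end peaks with a known strand lay at starts. Strand was known for every gene of 318 gene-end peaks, and 192 of these lay at a start only (60.4%, interval 54.9 to 65.6%). Another 103 lay at a 3' end only (32.4%, interval 27.5 to 37.7%) and 23 at a start and a 3' end. The remaining 101 peaks each touched a gene whose strand is not in the table. They included all 19 gene-end peaks of chromosome 8. Start-only peaks had their midpoint upstream of the start in 75 cases (39.1%) and downstream in the others, at a median distance of 1164 bp. They covered the start in 52 cases (27.1%), while 3' end-only peaks covered the end in 14 (13.6%) and had a median distance of 1944 bp. Of all 419 gene-end peaks, 283 (67.5%) touched the body of a gene and 103 (24.6%) covered a gene boundary.

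Gene-end peaks were weaker than the other arm peaks. Their median fold was 3.36 in the shared list, 3.71 in replicate 1 and 3.81 in replicate 2. For peaks inside gene bodies the medians were 3.49, 3.84 and 3.96, for intergenic peaks within 100 kb 3.5, 3.87 and 3.94, and for peaks over 100 kb away 3.52, 3.85 and 4.01. A fold of 4 or more in both replicates was reached by 56 of 419 gene-end peaks (13.4%, interval 10.4 to 17%). It was reached by 22.2% of peaks inside gene bodies (difference −8.79 points, Fisher's exact test, two-sided, adjusted p = 0.000105). Among intergenic peaks within 100 kb the share was 23.2% (difference −9.82 points, Fisher's exact test, adjusted p = 5.42e-05), and among peaks over 100 kb away 25% (difference −11.6 points, Fisher's exact test, adjusted p = 1.55e-05). The p-values were adjusted by Benjamini-Hochberg over 6 tests, and the tests treat peaks as independent although neighbouring peaks are not. The 3 differences kept their sign and their call in each replicate alone, but none was called at a fold of 3, which 414 gene-end peaks passed, or of 5, which 3 passed.

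In both replicates, 25 gene-end peaks (5.97%, interval 4.07 to 8.66%) reached a −log10 q of 3 or higher. The share was 10.3% inside gene bodies (Fisher's exact test, adjusted p = 0.0074), 12.1% among intergenic peaks within 100 kb (Fisher's exact test, adjusted p = 0.000493) and 8.66% over 100 kb away (Fisher's exact test, adjusted p = 0.128). This difference rested on replicate 2. In replicate 1 alone 25.3% of gene-end peaks passed, against 27.2%, 30.5% and 23.2% of the other classes, and no difference was called (Fisher's exact test, adjusted p = 0.467, 0.075 and 0.467). At a −log10 q of 5, which 2 gene-end peaks passed, none was called either.

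Start-only peaks had lower folds than peaks at 3' ends only. A fold of 4 or more in both replicates was found in 17 of 192 start-only peaks (8.85%, interval 5.60 to 13.7%) and in 24 of 103 peaks at 3' ends only (23.3%, interval 16.2 to 32.3%), beside 22.2% of peaks inside gene bodies. The median fold was 3.28 at starts and 3.53 at 3' ends. In replicate 1 the shares were 20.3% and 39.8%, and in replicate 2 they were 25% and 43.7%. This split was made after the values of the classes were seen and was not put to a test. Width did not set the classes apart in the same way, with a median of 990 bp for gene-end peaks, 991 bp inside gene bodies, 956.5 bp for intergenic peaks within 100 kb and 1099 bp over 100 kb away. Width enters the rule, since a wide peak reaches a window more easily, and was not tested.

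**Figure D3:**
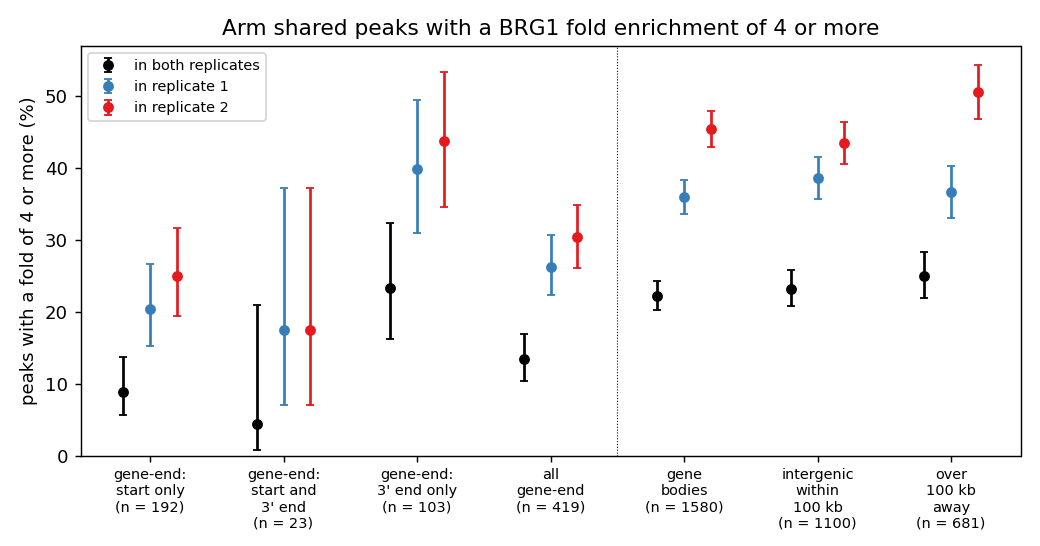
Percent of arm shared peaks with a fold enrichment of 4 or more (y axis), for gene-end peaks by position, all gene-end peaks and the 3 other classes (x axis); points are shares in both replicates or in each alone, with 95% Wilson intervals. Start-only peaks had 8.85% in both replicates and peaks at 3' ends only had 23.3%, against 22.2 to 25% in the other classes.

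Across the 419 gene-end peaks, fold ran from 1.93 to 5.07 in the shared list, and the folds of both replicates were moderately related (Spearman 0.485, Pearson 0.559, n = 419 peaks of the same 2 libraries). For the other classes the Spearman value was 0.400, 0.426 and 0.415. The median peak stood at the 63.4th percentile of fold, averaged over the lists of both replicates, against 72.8, 73.2 and 75.2 for the other classes, and 224 gene-end peaks (53.5%) stood above the median of both lists. Fold below 3 in both replicates marked 5 peaks, nearest FRG2C, FRG2, SNX16, LOC101929601 and LOC101929627, which were named after their values were seen. FRG2 and FRG2C belong to a family of near-identical copies between which reads can be divided, so the place of their peaks is uncertain. Their −log10 q in the shared list was 4.54 and 5.85, above the gene-end median of 3.18.

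**Figure D4:**
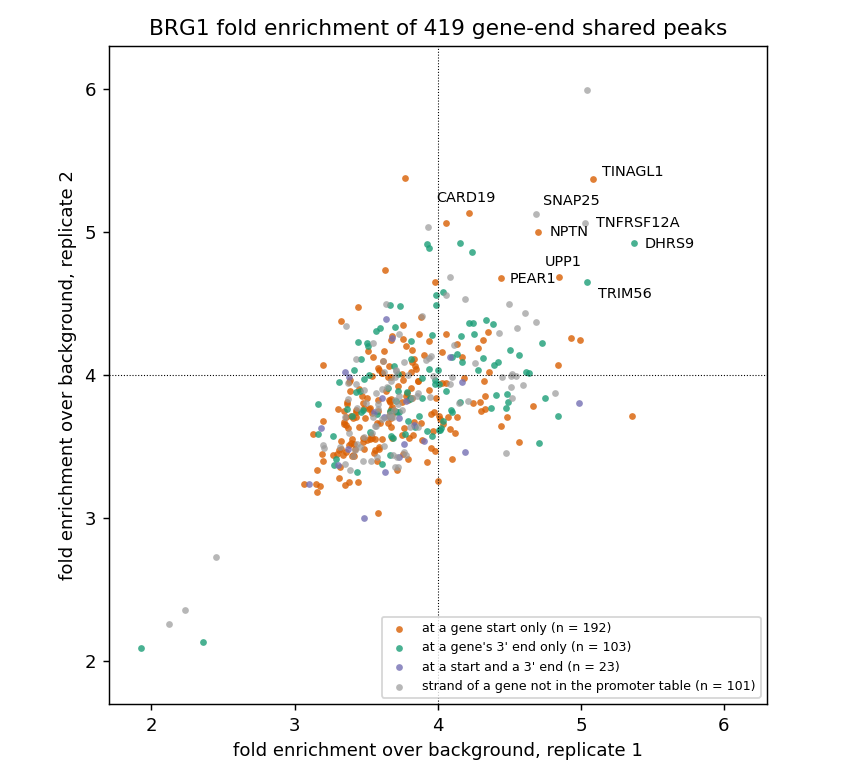
Fold enrichment of each of the 419 gene-end shared peaks in replicate 1 (x axis) and replicate 2 (y axis), coloured by position at a gene start, a 3' end or both; dotted lines mark a fold of 4, and 9 of the peaks of highest mean percentile are named. TINAGL1 had folds of 5.08 and 5.37, and 5 peaks lie apart below a fold of 3 in both replicates.

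The gene-end peaks of highest fold rank lay beside genes of different roles. The peak 2361 bp upstream of TINAGL1, a matricellular protein gene, had a fold of 4.58 in the shared list, with 5.08 and 5.37 in replicates 1 and 2. It was 1 of the 2 gene-end peaks past a −log10 q of 5 in each replicate, at 5.24 and 5.12. TNFRSF12A encodes the receptor of the cytokine TWEAK. Its peak of 2268 bp also reached the ends of CLDN6, HCFC1R1 and THOC6, with a fold of 3.94, and 5.03 and 5.06 in replicates 1 and 2. DHRS9 encodes a short-chain dehydrogenase of retinol and steroid metabolism. The peak near its 3' end was 314 bp wide, with a fold of 5.06, and 5.37 and 4.92 in replicates 1 and 2.

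The next peaks differed in which replicate was higher. SNAP25, a SNARE gene of vesicle fusion, had a fold of 4.60, with 4.69 and 5.13 in replicates 1 and 2. NPTN, which encodes the adhesion protein neuroplastin, had 4.45, with 4.70 and 5.0. TRIM56, a ubiquitin ligase gene of antiviral responses, had 3.86, with 5.04 and 4.65. In SNAP25 and NPTN replicate 2 was higher, and in TRIM56 replicate 1. UPP1, which encodes the pyrimidine salvage enzyme uridine phosphorylase, had a peak 2881 bp upstream with a fold of 4.10, and 4.85 and 4.69 in replicates 1 and 2. A second UPP1 peak covered the start, where both an AP-1 and a TEAD match stood, with a fold of 3.23. PEAR1, CARD19, MYEOV and CD151 were also among the 12 highest, with folds of 4.41, 4.31, 3.73 and 3.89. PEAR1, a receptor gene of platelets and endothelium, had 4.44 and 4.68 in replicates 1 and 2. CARD19 was lower in replicate 1 at 4.22 than in replicate 2 at 5.13. CD151, which encodes a tetraspanin partner of laminin-binding integrins, had 4.61 and 4.43, in a peak only 309 bp wide. Ranked by fold in the shared list, PHC2 (4.36), ITGBL1 (4.32), LIPH (4.25), LOXL4 (4.21) and RAB40C (4.21) also entered the 12 highest.

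The widest gene-end peaks were not those of highest fold. The widest, 6024 bp over an end of PKP2, a desmosomal plakophilin gene, had a fold of 3.22, with 3.70 and 3.83 in replicates 1 and 2. VGLL3, which encodes a TEAD cofactor, had a peak of 5244 bp over its start with a fold of 3.17, and 3.61 and 4.02 in replicates 1 and 2. The peak over the start of OSMR, the oncostatin M receptor gene, measured 3779 bp with a fold of 2.88. ATOX1 (4155 bp), DNMBP (4134 bp) and TMEM52B (3706 bp) were the other 3 of the 6 widest. In all, 62 gene-end peaks (14.8%) were wider than 2 kb. A gene-end peak was split over more than 1 peak in replicate 1 in 41 cases and in replicate 2 in 29.

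Some gene-end peaks had another shared peak nearby. One lay within 10 kb of 95 gene-end peaks (22.7%) and within 100 kb of 250 (59.7%), measured between midpoints. These shares were not computed for the other arm peaks, so they do not set gene-end peaks apart. At their ends 28 genes had more than 1 gene-end peak. SUSD1 had 3, and SNAP25, UPP1, ITGBL1, ANXA8, LRRC49, HORMAD2, ZNF475, CNNM1, EFL1, TMEM52B and AMIGO2 were the next by rank, each with 2. ITGBL1, an integrin beta-like protein gene, had a peak upstream of its start with a fold of 4.32 and another downstream with 3.42. SMURF2, a ubiquitin ligase gene of TGF-beta signalling, likewise had peaks on both sides of its start, with folds of 3.48 and 3.25. Among the 28 genes, 6 had a peak at the start and another at the 3' end: SUSD1, ZNF475, TNC, SEMA3C, EMP1 and AHNAK, of which the last 3 were named after their values were seen. SEMA3C encodes a secreted semaphorin and AHNAK a giant scaffold protein. ANXA8 belongs to a duplicated region with near-identical copies, so the place of its peaks is uncertain. Of the 440 genes, 106 had further shared peaks inside the body. This count was not made for the other genes, so it is not read as a trait of the 440. The 440 genes were longer than the other 18533, with a median length of 36574.5 bp against 24590 bp.

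Chromosome 19 stood apart in the share of arm peaks at gene ends. On chromosome 19, 30 of 82 arm peaks were gene-end peaks (36.6%), against 31 of 437 on chromosome 5 (7.09%). The lowest share was 4.69% on chromosome 18 and the highest after chromosome 19 was 20% on chromosome 16, from 5 of 25 peaks. Gene-end peaks nevertheless reached 2.41% of the genes on chromosome 19 and 3.36% of those on chromosome 5. The share of genes reached was highest on chromosome 10 (4.23%) and lowest on chromosome 13 (0.595%), against 2.32% over all chromosomes. Genes of 1 family add to some of these counts. They were PSG1, PSG2, PSG3, PSG5, PSG6, PSG7 and PSG8 on chromosome 19. On chromosome 10 they were ANXA8, ANXA8L1, FAM25A, FAM25C and FAM25G. Where such genes are similar copies, the place of their peaks is uncertain, and this was not examined.

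Gene lists were read by their counts against the 2.32% of all protein-coding genes. Over all 26 lists, 42 distinct genes had a gene-end peak (8.52% of those in the gene table). The lists were written with earlier results of these data known, so this share is no independent evidence. Among YAP/TEAD targets 5 of 29 genes had a gene-end peak. GADD45A, a stress-response growth-arrest gene, had a fold of 3.36, with 4.55 and 4.33 in replicates 1 and 2. ASAP1, which encodes an Arf GTPase-activating protein, had 3.56, with 4.51 and 3.99. CCN2 and YAP1 had the values given with their sequences, and RBMS3, an RNA-binding protein gene, had 3.17. GADD45A passed a fold of 4 in both replicates, ASAP1 in replicate 1 only, and YAP1 and RBMS3 in neither. From the peaks of replicate 1 alone, without replicate 2, the list counted 17 genes, and without replicate 1 it counted 9, while all genes with a gene-end peak numbered 1345 and 582, against 440. At a −log10 q of 3 in both replicates it counted 0, of 28 genes in all.

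Matrix, adhesion and mesenchymal lists had 3 to 5 genes each. Of 29 collagen and matrix genes, 5 had a gene-end peak: TINAGL1, TNC, THBS1, DCN and LAMA5. TNC, the tenascin C gene, had a peak over its start with a fold of 3.18 and another near the 3 kb limit of its 3' end with 3.49. THBS1, the thrombospondin 1 gene, and DCN, the decorin gene, had folds of 3.24 and 3.17, with 3.61 and 3.69 for THBS1 in replicates 1 and 2 and 3.54 and 3.71 for DCN. LAMA5, a basement membrane laminin chain gene, stood low with a fold of 2.93. TINAGL1 was thus the only gene of this list to pass a fold of 4 in both replicates. Integrin and focal adhesion genes counted 3 of 25, namely CD151, VCL and PARVA. VCL, the vinculin gene, had a fold of 3.58 but differed between replicates, with 4.49 and 3.71 in replicates 1 and 2. Mesenchymal genes counted 4 of 26, among them CCN2, TNC and the EMT transcription factor gene ZEB2 (fold 3.28). Desmosome and hemidesmosome genes counted 3 of 20 (CD151, PKP2 and DST). Without replicate 2 the collagen and matrix list counted 11, the integrin list 6, the mesenchymal list 10 and the desmosome list 6, and without replicate 1 they counted 8, 4, 6 and 3. Of all 18973 genes, 1345 had a gene-end peak without replicate 2 and 582 without replicate 1. At a −log10 q of 3 in both replicates the mesenchymal list counted 0 and the other three 1 each.

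Inflammatory and endometrial lists had 5 genes each. Of 26 inflammatory genes 5 had a gene-end peak. IL6, the interleukin 6 gene, had a fold of 4.01 near its 3' end, with 4.16 and 4.92 in replicates 1 and 2. CCL2, a monocyte chemokine gene, had 3.89, with 4.68 and 4.37. TNFRSF12A, IL6 and CCL2 passed a fold of 4 in both replicates, while CSF1 (3.86 and 3.85) and LIF (3.62 and 4.10) did not. Among 20 endometrial factors 5 had a gene-end peak. LIF and its receptor gene LIFR had folds of 3.44 and 3.24, and NR2F2, a nuclear receptor gene of endometrial stroma, had 3.19. HOXA11 and HOXA9 had folds of 2.55 and 2.80, and their mean percentiles of 16.2 and 16 stood low. HOX genes as a list counted 4 of 31, with HOXA2 (3.28) and HOXB4 (2.89) as the others. Without replicate 2 the inflammatory list counted 8, the endometrial list 6 and the HOX list 10, and without replicate 1 they counted 6, 5 and 5. In these settings 1345 and 582 of all 18973 genes had a gene-end peak. At a −log10 q of 3 in both replicates the inflammatory list counted 2 and the endometrial and HOX lists 0.

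Epithelial and cytoskeletal lists had 1 or 2 genes each. Keratin genes counted 2 of 20, with a fold of 3.88 for KRT80 and 3.24 for KRT7. Tight junction and polarity genes counted 2 of 24 (CGNL1 3.92, PATJ 3.59) and actin cytoskeleton genes 2 of 23 (ANLN 3.13, RDX 3.21). Adherens junction genes counted 1 of 20 (VCL), TGF-beta genes 1 of 24 (SMURF2), receptor kinases and ligands 1 of 22 (MET, fold 2.96), TNF receptors 1 of 17 (TNFRSF12A), cell cycle genes 1 of 24 (CDKN1B) and neuronal genes 1 of 18 (SNAP25). At these list sizes 1 gene sets the whole share. Without replicate 2 the TGF-beta list counted 12 of 24, the actin list 9, receptor kinases and ligands 5, keratins 4, adherens junction, TNF receptor and cell cycle genes 3 each, and tight junction and neuronal genes 2 each. Without replicate 1 all of these counted 1 to 3. These counts stand beside 1345 of all 18973 genes without replicate 2 and 582 without replicate 1. At a −log10 q of 3 in both replicates the tight junction, TNF receptor and neuronal lists counted 1 and the others 0.

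SWI/SNF subunit genes counted 1 of 28, with DPF3, a subunit of the BAF complex, at a fold of 4.0 over its 3' end. SMARCA4 itself had 0 gene-end peaks and its nearest shared peak was 80352 bp away, although replicate 1 had 1 peak in or within 3 kb of the gene. AP-1 factor genes counted 0 of 14, ribosomal protein genes 0 of 28 and hepatocyte genes 0 of 20, and at 2.32% a list of this size holds few or no genes. Of the cell type markers, 1 of 8 epithelial genes (KRT7) and 3 of 8 stromal genes (NR2F2, DCN and THY1) had a gene-end peak, as did 0 of 6 endothelial and 0 of 6 immune genes. Without replicate 2 the SWI/SNF list counted 5, AP-1 factors 1, epithelial markers 3, stromal markers 6 and immune markers 2, and without replicate 1 they counted 2, 1, 1, 3 and 0. All 18973 genes counted 1345 without replicate 2 and 582 without replicate 1. At a −log10 q of 3 in both replicates the SWI/SNF list counted 1 and these others 0. A peak does not show that its gene is expressed, so these counts describe binding and do not identify cells.

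**Figure D5:**
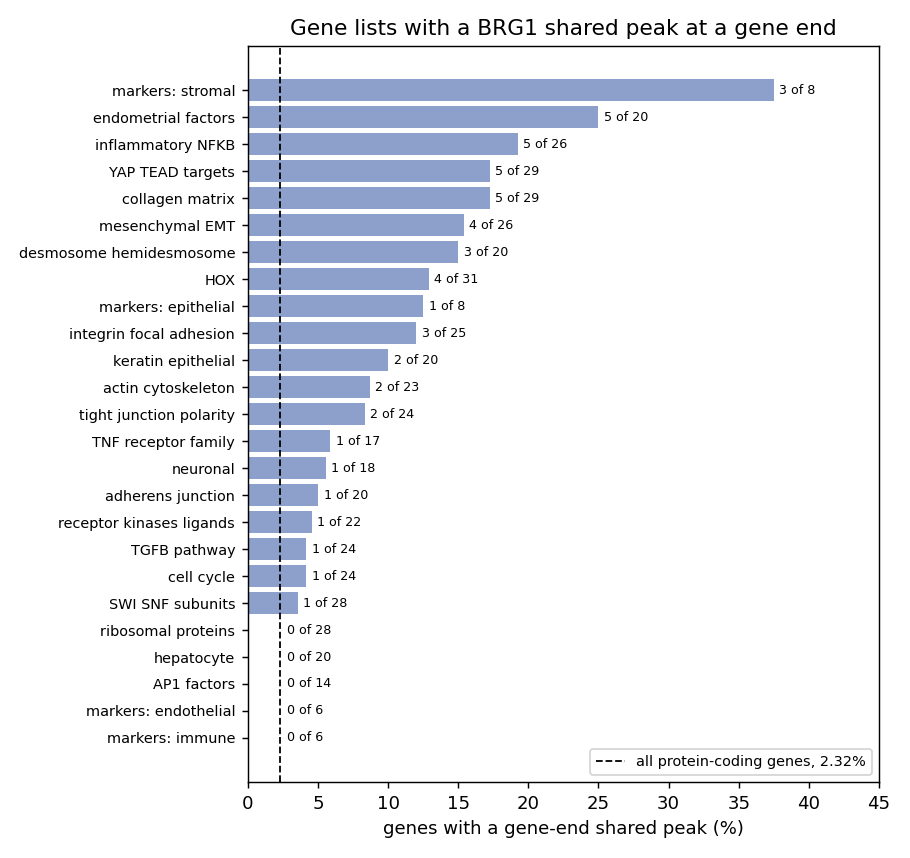
Percent of the genes of each list described here with a gene-end shared peak (x axis), with the counts beside the bars; the dashed line is the 2.32% of all protein-coding genes. Stromal markers (3 of 8) and endometrial factors (5 of 20) had the largest shares, and 5 lists had 0 genes.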

How the data were processed

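BRG1 ChIP-seq peak lists of 2 libraries and their overlap list were used. Per the submitters' processing notes, the authors used build GRCh38.p12 and the tools MACS2, Bowtie2, Picard, SAMtools, bedtools, cutadapt and Trim Galore. Of versions, settings and the making of the overlap call, none is given in the sources used here. The authors' files give each peak a fold enrichment, a ratio over background, and a −log10 q-value. A deposited score column and a −log10 p-value were left unused. No counts are given, so no interval here covers read sampling.

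Gene ends came from a RefSeq table of GRCh38.p14, whose coordinates are not printed, and strand and promoters from a RefSeq promoter table of the same build. Both builds are patches of one assembly, and peak coordinates are the authors', counted from 1. The 153 protein-coding genes that the table lists on scaffolds were left out, which left 18973. Strand was missing for 3872 of them, among them all 20 chromosome 8 genes with a gene-end peak. Overlap meant 1 bp or more. Analyses used Python 3.11.15 with numpy 2.4.6, scipy 1.17.1 and pandas 2.3.3. Fisher's exact test was two-sided, with a threshold of 0.05 after adjustment over 6 tests. The sorting of peaks into classes and gene sides and the choice of replicate peak were checked on simulated peaks. The test itself was not.

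Members and gene lists were chosen with earlier results of these data known. Genes were named by rank (the 12 highest by mean fold percentile and by fold, the 6 widest, up to 12 with more than 1 peak, those past a −log10 q of 5 in each replicate), by list, or at the 3 kb limit. SMARCA4 was added, and other genes are said to be chosen after their values were seen. A few genes and 1 list that these rules take in are left out here. Alternatives covered the window, the peak overlap, the thresholds, each replicate alone and the motif windows.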

Additional observations from a re-analysis of the deposited data

Results flagged for a closer look

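Outside the chromosome arms, 7 shared peaks lay within 3 kb of the ends of 5 protein-coding genes, among 2502 shared peaks in the stretches around centromeres and on acrocentric short arms. They stood out because the comparisons above do not use these stretches. Their median fold was 2.76 in the shared list, 3.05 in replicate 1 and 3.19 in replicate 2, and 0 of the 7 reached a −log10 q of 3 in each replicate.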

How the results depend on the processing

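No paired analysis was possible because the peak lists hold a single condition. The genes kept on scaffolds, the midpoint rule for the class differences and all but 2 of the motif settings were added after seeing the data.

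The number of gene-end peaks (419), their share of arm peaks (11.1%) and their genes (440) followed the definition. With 1 kb they were 239, 6.32% and 256, with 68.6% at a start only and medians of 3.30 for fold, 1067 bp for width and 3.02 for −log10 q. With 10 kb they were 868, 23% and 895, with 52.8% at a start only and 86 list genes. The midpoint rule gave 9.76%, and keeping the dropped stretches 6.78%. A −log10 q of 3 in both replicates left 25 peaks, 6.6%, 28 genes and 7 list genes, and of 5 left 2 peaks, 7.41% and 2 genes. Overlap of 50% of both peaks left 78 peaks and 9.36%. Without replicate 1 or without replicate 2, the ranges were 569 to 1402 peaks, 11.2 to 12.3%, 582 to 1345 genes, 66.9 to 73.5% at a start only, 19.6 to 26.0% at a 3' end only and 62 to 117 list genes. Keeping scaffold genes gave 423 peaks.

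The fold differences from peaks inside gene bodies, intergenic peaks within 100 kb and peaks over 100 kb away became −0.81, 0.53 and 1.74 points at a fold of 3, and 0.15, −0.10 and 0.13 at 5, where nearly all or nearly no peaks passed. For −log10 q, a threshold of 2 moved the last to −10.4 (Fisher's exact test, adjusted p = 0.00118), and 5 moved the first pair to −0.029 and −0.70. Without replicate 1 or without replicate 2 the 3 differences ranged from −7.78 to −1.92, −9.50 to −5.25 and −6.68 to 2.10. The AP-1 and TEAD shares fell to 9.65% and 12.3% over all windows of genes with a peak within 3 kb of the start. The other causes were not tested. Depth limits are unknown.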

Other observations

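Shared peaks inside gene bodies or between genes also covered promoter windows, at starts of transcripts away from the outer start of their gene. Of 43 such windows, 39.5% held an AP-1 match and 37.2% a TEAD match, against 23.5% and 21.4% of the 98 windows that gene-end peaks overlapped. A GC box stood in 30.2% of the 43 windows, against 66.3% of the 98. Chromosome X, outside the chromosomes described above, had 11 shared peaks, of which 0 lay at gene ends.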
